A study of Mus musculus with 76 samples.

Results

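The 10 RNA-binding regulators of alternative splicing in developing neurons, Ptbp1, Ptbp2, Nova1, Nova2, Rbfox1, Rbfox2, Rbfox3, Srrm4, Elavl3 and Elavl4, were followed in the embryonic mouse diencephalon. They were taken as a fixed list of 10 gene symbols out of 56923 gene identifiers in the count files, and each symbol matched 1 identifier. The rule used no measured value, but the list was chosen with earlier results of these data known. The series compared C57BL/6J wild type embryos with homozygous hs754-humanized embryos, in which a human sequence replaces its mouse counterpart on chromosome 13, and none of the 10 genes lies on that chromosome. Tissue was taken at E11.5 and E17.5, with embryos of 1 litter pooled per replicate (6 at the earlier stage, 3 at the later), so that each replicate is a litter. RNA was counted in 4 wild type and 4 humanized libraries per stage, and peaks of H3K27ac, H3K4me3 and H3K27me3 were called for each genotype in 2 E11.5 lists and 3 E17.5 lists, with CTCF only at the later stage. The RNA libraries carried 16414369 to 24272569 reads on genes.

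As background, PTBP1, a repressor that binds pyrimidine-rich RNA, holds back a set of neuronal alternative exons in progenitor cells, and many of these are released as neurons form and PTBP1 gives way to its neural paralog PTBP2. NOVA proteins bind YCAY motifs and RBFOX proteins bind GCAUG, and both promote or repress an exon depending on which side of it they bind. SRRM4 promotes the inclusion of neuronal microexons, and the neuronal ELAVL (Hu) proteins bind AU-rich and U-rich RNA and act on both splicing and mRNA stability. Rbfox3 encodes NeuN, a widely used marker of mature neurons.

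The promoters of these genes were not of 1 kind, and 3 are shown that span the range of CpG content. Each is the reference sequence of GRCm39 from 250 bases before to 50 bases from the canonical start site, read 5′ to 3′ on the strand of the gene, with every CpG in capitals. Ptbp1 starts on chromosome 10 (window chr10:79690011-79690310, plus strand), Elavl3 on chromosome 9 (chr9:21963275-21963574, minus strand), and the canonical Rbfox1 start lies on chromosome 16 (chr16:6165986-6166285, plus strand), inside a gene that spans 2105679 bp and has 11 annotated start sites.
Ptbp1: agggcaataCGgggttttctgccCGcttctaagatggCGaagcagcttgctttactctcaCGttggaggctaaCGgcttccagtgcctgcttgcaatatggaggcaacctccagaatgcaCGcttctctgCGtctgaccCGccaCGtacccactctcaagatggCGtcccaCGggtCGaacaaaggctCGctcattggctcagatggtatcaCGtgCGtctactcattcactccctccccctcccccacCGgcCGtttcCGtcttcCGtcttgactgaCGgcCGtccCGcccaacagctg
Elavl3: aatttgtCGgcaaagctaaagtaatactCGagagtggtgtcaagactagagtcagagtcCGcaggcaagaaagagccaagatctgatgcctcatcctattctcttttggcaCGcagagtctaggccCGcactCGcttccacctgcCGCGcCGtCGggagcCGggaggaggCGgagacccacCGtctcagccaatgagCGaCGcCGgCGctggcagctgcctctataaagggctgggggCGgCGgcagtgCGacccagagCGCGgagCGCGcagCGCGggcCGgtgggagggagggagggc
Rbfox1: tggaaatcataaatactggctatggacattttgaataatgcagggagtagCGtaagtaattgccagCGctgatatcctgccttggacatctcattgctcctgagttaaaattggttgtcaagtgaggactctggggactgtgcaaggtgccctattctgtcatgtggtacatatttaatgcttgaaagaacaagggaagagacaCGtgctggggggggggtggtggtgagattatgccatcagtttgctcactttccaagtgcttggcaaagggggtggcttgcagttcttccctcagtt
The Ptbp1 window held 22 CpGs, with an observed over expected ratio of 0.885, and the Elavl3 window held 27, with a ratio of 0.901. The Rbfox1 window held 3, with a ratio of 0.193. A GC content of at least 50% together with a ratio of at least 0.6 was met by 5 of the 10 promoters (Ptbp1, Nova1, Rbfox2, Srrm4 and Elavl3), against 39.6% of 20937 protein-coding promoters. Ptbp2, Rbfox3 and Elavl4 had ratios of 0.280, 0.285 and 0.350, and Nova2 had a GC content of 70.0% with a ratio of 0.511.

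Before the RNA values are given, the first wild type library at E17.5 has to be set apart. On the first principal component of the 8 E17.5 libraries, which held 70.3% of the variance, it scored 103.96 while the others lay between -36.0 and 4.96. Across 20143 genes, its deviation from the other 3 libraries of its group ran with the GC content of the longest transcript (Spearman correlation 0.713, a description across genes, which are not independent). The median deviation was -0.98 (log2) in the 10% of genes lowest in GC and 0.82 in the 10% highest in GC. The part of GC content in the members' values was not tested apart from the offsets given below. Ptbp2, Elavl4 and Nova1 are low in GC (37.7%, 38.7% and 41.5%), whereas Rbfox3 and Nova2 are high (59.2% and 56.4%). Stage changes of the 10 genes in wild type embryos are given with and without the first E17.5 library. They stand beside those of the humanized embryos, which share no library with them.

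Ptbp1 fell steeply between the stages and Rbfox1 rose more than any other of the 10 genes, and Nova1, Rbfox2, Rbfox3, Elavl3 and Elavl4 rose as well. In bulk samples fewer cells of a type and less RNA per cell cannot be told apart. In wild type embryos 7 of the 10 genes passed edgeR's quasi-likelihood test (Benjamini-Hochberg adjusted p under 0.05 over 18583 genes), 6 higher and 1 lower at E17.5. Of all genes tested, 55.7% passed, 29.0% higher and 26.7% lower. Their median log2 change was 0.78, against -0.01 over all genes tested. Without the first E17.5 library, 9 passed, 6 higher and 3 lower, with 72.3% of all genes passing. In humanized embryos 9 passed, also 6 higher and 3 lower, with 77.7% of all genes passing (38.2% higher and 39.5% lower).

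**Figure D1:**
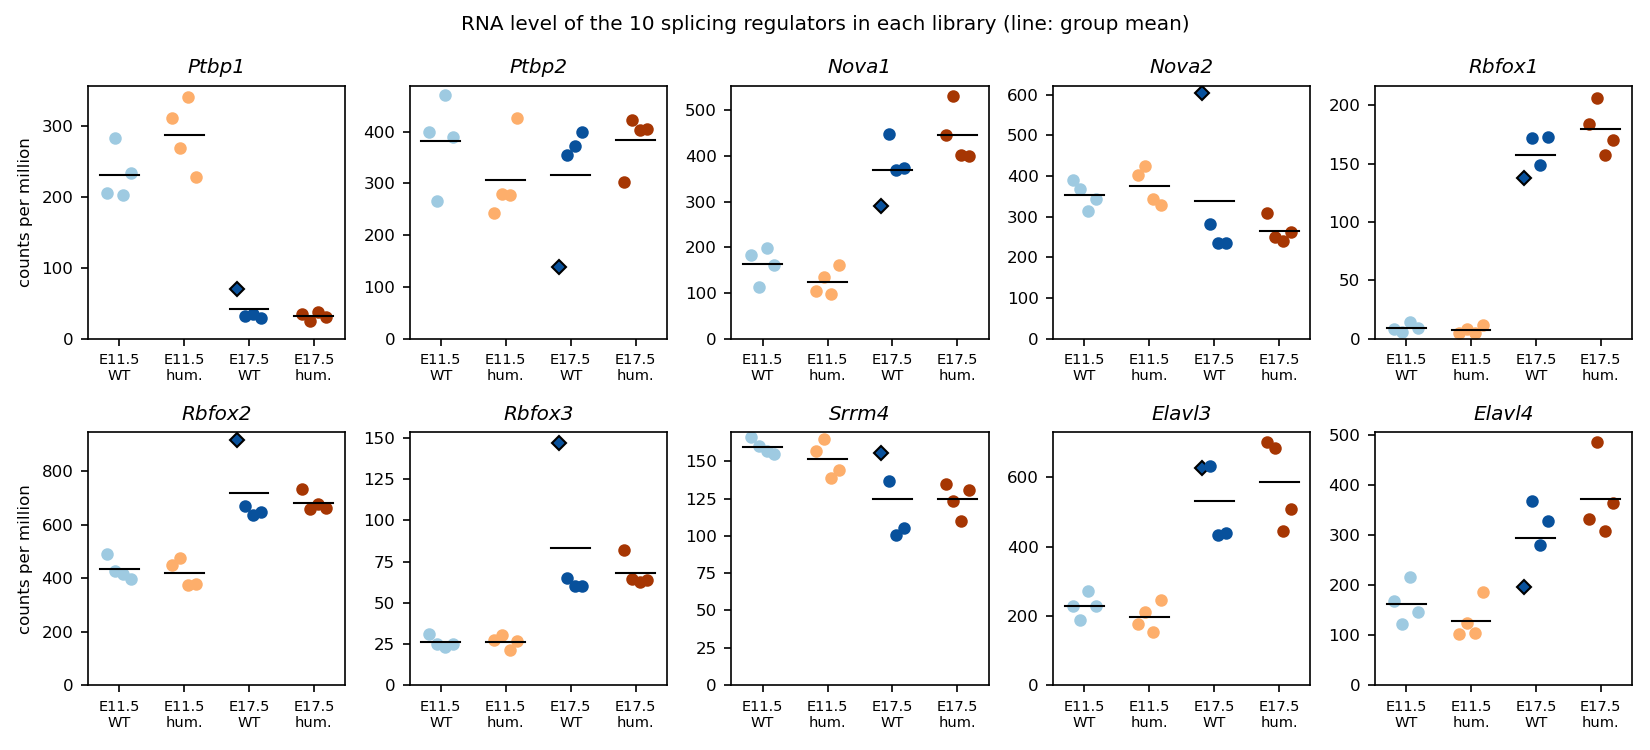
RNA level of each of the 10 genes in CPM (y axis, TMM-scaled, from 0) in every library of the 4 groups (x axis), with a line at the group mean of 4. The diamond marks the first wild type library at E17.5. In wild type libraries Ptbp1 lies between 203 and 284 at E11.5 and between 29.1 and 69.8 at E17.5, and Rbfox1 goes from at most 13.9 to at least 137.

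Ptbp1 stood at 206, 284, 203 and 233 CPM (counts scaled to library size, by TMM over the 16 libraries) in the wild type E11.5 libraries, and at 69.8, 32.3, 34.3 and 29.1 at E17.5. All E17.5 libraries lay below all E11.5 libraries, and the first E17.5 library was the highest of its group. The log2 fold change was -2.49 ± 0.29 (SE, n = 4 per stage, edgeR adjusted p = 4.5e-05), and -2.88 ± 0.15 without that library. Humanized embryos went from 311, 269, 341 and 228 CPM to 34.0, 24.3, 36.8 and 30.1, a log2 fold change of -3.21 ± 0.16 (n = 4 per stage, edgeR adjusted p = 6.5e-09). The wild type change was larger in size than that of 87.6% of the genes tested.

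Ptbp2, the neural paralog, did not pass the test in either genotype. Its wild type values were 399, 267, 472 and 389 CPM at E11.5, then 138, 355, 373 and 399 at E17.5, and the stages overlapped. The log2 fold change was -0.28 ± 0.32 (n = 4 per stage, edgeR adjusted p = 0.47), -0.04 ± 0.16 without the first E17.5 library, and 0.30 ± 0.18 in humanized embryos (adjusted p = 0.15). Without the fourth humanized E11.5 library Ptbp2 was called as higher in humanized embryos (adjusted p = 0.0041). Only 3.09% of the genes tested are lower in GC than Ptbp2, and the answer depended on how GC was treated. With a separate offset for each library in 20 bins of GC content, an alternative chosen after seeing the data that also takes out any true relation of stage change to GC, Ptbp2 fell by 1.26 (SE 0.11, adjusted p = 1.6e-06) in wild type and by 1.34 (SE 0.13, adjusted p = 4.3e-07) in humanized embryos. Ptbp1 fell under the same offsets too, by 2.32 and 2.60.

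Levels of different genes were compared per length, as TPM (length-scaled CPM, computed here from the union of exons). Ptbp1 supplied 56.8% ± 9.94 (SD, n = 4) of the TPM of the 3 Ptbp genes in wild type embryos at E11.5, then 23.9% ± 17.8 at E17.5. The first E17.5 library stood at 50.5%, and without it the E17.5 share was 15.0% ± 1.45 (n = 3). In humanized embryos Ptbp1 supplied 66.8% ± 9.88 and 14.5% ± 3.62. Ptbp2 supplied 36.3% ± 7.42 and 61.1% ± 15.1 in wild type embryos (68.5% ± 3.67 at E17.5 without that library, n = 3), and 27.8% ± 7.30 and 67.8% ± 2.98 in humanized embryos. The mean TPM of Ptbp2 in wild type embryos was 153 ± 37.5 (SD, n = 4) in the E11.5 libraries and 124 ± 52.0 in those of E17.5. The ratio of Ptbp2 to Ptbp1 TPM was 0.754, 0.366, 0.905 and 0.648 in the wild type E11.5 libraries and 0.770, 4.27, 4.23 and 5.33 at E17.5. The first E17.5 library lay inside the E11.5 range and the other 3 lay above it. In humanized embryos the ratio went from 0.302, 0.403, 0.318 and 0.727 to 3.46, 6.77, 4.26 and 5.24, with no overlap. Ptbp3, the paralog expressed mainly outside neurons, was not called in wild type embryos (log2 fold change 0.07 ± 0.37, adjusted p = 0.89, and 0.29 ± 0.27, adjusted p = 0.35, without the first E17.5 library) and rose by 0.71 ± 0.30 (adjusted p = 0.048) in humanized embryos.

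**Figure D2:**
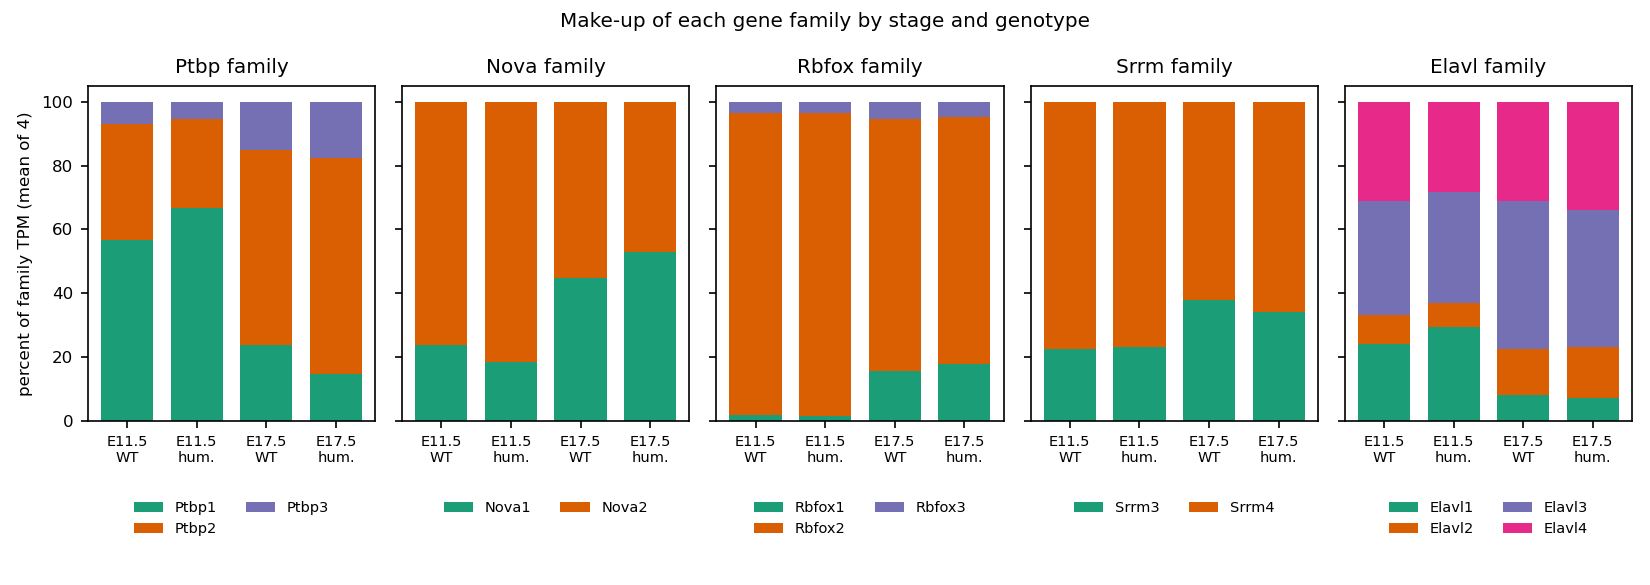
Share of each gene in the summed TPM of its family (y axis, percent, mean of 4 libraries) for the 4 groups (x axis), with 1 panel per family. The share of Ptbp1 goes from 56.8% to 23.9% and that of Ptbp2 from 36.3% to 61.1%, and Rbfox1 grows from 1.74% to 15.6% of the Rbfox family in wild type embryos.

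The Nova genes, first known as antigens of a paraneoplastic movement disorder, parted with stage. Nova1 rose from 184, 112, 199 and 161 CPM to 289, 448, 369 and 373 in wild type embryos, with no overlap (log2 fold change 1.16 ± 0.22, n = 4 per stage, edgeR adjusted p = 0.0012), by 1.25 ± 0.17 without the first E17.5 library, and by 1.83 ± 0.18 in humanized embryos. Nova2 held 390, 368, 314 and 343 CPM at E11.5, then 603, 281, 234 and 236 at E17.5. The first E17.5 library was above and the other 3 below all E11.5 libraries, and the log2 fold change was -0.07 ± 0.30 (edgeR adjusted p = 0.85). Without that library Nova2 fell by 0.52 (SE 0.12, adjusted p = 0.0021), and in humanized embryos it fell by 0.51 (SE 0.12, adjusted p = 0.0020). With GC offsets it was not called in either genotype, at 0.02 and 0.13, and in 1 fit of all 16 libraries the humanized call was lost (-0.50 ± 0.24, adjusted p = 0.069). The share of Nova1 in the TPM of both genes went from 23.7% ± 5.27 to 44.8% ± 13.6 (SD, n = 4) in wild type embryos, or 51.6% ± 0.188 (n = 3) without the first E17.5 library, and from 18.3% ± 4.46 to 52.9% ± 4.27 in humanized embryos.

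The Rbfox genes all rose. Rbfox1 was nearly silent at E11.5, with 158, 101, 275 and 215 reads or 8.10, 5.36, 13.9 and 8.72 CPM in wild type libraries, and reached 137, 172, 148 and 173 CPM at E17.5. Every E17.5 library was above every E11.5 library, and the mean CPM was 17.47 times as high in wild type and 24.1 times as high in humanized embryos. The log2 fold changes were 4.11 ± 0.30 (n = 4 per stage, edgeR adjusted p = 2.0e-06) and 4.57 ± 0.29 (adjusted p = 4.5e-08), and the first was larger in size than that of 96.1% of genes tested. The wild type change was 4.17 ± 0.24 without the first E17.5 library. Rbfox2, which is also made outside the nervous system, was the most abundant of the family at both stages. It rose from 491, 428, 415 and 398 CPM to 918, 670, 636 and 649, a log2 fold change of 0.72 ± 0.18 (adjusted p = 0.0054), or 0.57 ± 0.11 without the first E17.5 library. Rbfox3 rose from 30.8, 25.1, 23.2 and 25.0 CPM to 147, 65.2, 60.1 and 60.0. Its stages did not overlap, and its first E17.5 library was 147 CPM against at most 65.2 in the others. The log2 fold change was 1.67 ± 0.30 (adjusted p = 9.1e-04), 1.23 ± 0.13 without that library and 1.36 ± 0.14 in humanized embryos.

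On the TPM scale Rbfox2 supplied 94.9% ± 0.632 (SD, n = 4) of the family in wild type embryos at E11.5 and 79.2% ± 1.76 at E17.5, whereas Rbfox1 went from 1.74% ± 0.741 to 15.6% ± 3.37. Rbfox3 supplied 3.38% ± 0.197 and 5.25% ± 1.68. The E17.5 shares of Rbfox2, Rbfox1 and Rbfox3 were 78.4%, 17.2% and 4.41% (n = 3) without the first E17.5 library. The share of Rbfox2 depends on the length used: by the longest transcript it was 89.5% and 65.9%, with Rbfox1 at 3.03% and 23.9%.

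Srrm4 changed little, with 166, 160, 157 and 155 CPM in wild type libraries at E11.5, then 156, 137, 100.5 and 106 at E17.5. The stages met at the first E17.5 library. The log2 fold change was -0.37 ± 0.18 (edgeR adjusted p = 0.11), and without that library Srrm4 fell by 0.50 (SE 0.13, adjusted p = 0.0034). In humanized embryos it fell by 0.29 (SE 0.11, adjusted p = 0.027), with 110 to 135 CPM at E17.5 below 139 to 165 at E11.5, but the call was lost in 4 of the 8 fits that left out 1 library and under 5 other ways of processing. With GC offsets its sign turned, at 0.22 ± 0.11 (adjusted p = 0.072). Its paralog Srrm3 rose by 0.70 ± 0.23 (adjusted p = 0.021) in wild type embryos, by 0.44 ± 0.13 (adjusted p = 0.0075) without the first E17.5 library, and by 0.48 ± 0.14 (adjusted p = 0.0072) in humanized embryos. Srrm4 accordingly supplied 77.5% ± 1.66 (SD, n = 4) of the TPM of both genes at E11.5 and 62.3% ± 4.40 at E17.5 in wild type embryos, or 63.7% ± 4.03 (n = 3) without that library.

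Elavl3 (HuC) rose from 228, 188, 271 and 228 CPM to 628, 632, 433 and 438 in wild type embryos, with no overlap, a log2 fold change of 1.21 ± 0.20 (n = 4 per stage, edgeR adjusted p = 5.5e-04), and of 1.11 ± 0.16 without the first E17.5 library. In humanized embryos it rose by 1.56 ± 0.19. Elavl4 (HuD) went from 167, 121, 215 and 145.5 CPM to 195, 367, 280 and 328. The first E17.5 library lay within the E11.5 range and the other 3 above it, and the log2 fold change was 0.84 ± 0.25 (adjusted p = 0.015) with it and 0.98 ± 0.17 without it. The call was lost without the fourth wild type E11.5 library (adjusted p = 0.053). In humanized embryos Elavl4 rose by 1.52 ± 0.22. Only 4.62% of the genes tested are lower in GC than Elavl4, and with GC offsets it was not called in either genotype, at -0.03 (adjusted p = 0.89) and -0.14 (adjusted p = 0.44). Elavl2 (HuB) rose by 1.47 ± 0.40 (adjusted p = 0.010) and Elavl1 (HuR), which most cells express, fell by 0.71 (SE 0.15, adjusted p = 0.0018). Their changes were 1.72 ± 0.27 and -0.73 ± 0.11 without the first E17.5 library. Elavl1 supplied 24.1% ± 4.99 (SD, n = 4) of the family TPM at E11.5 and 8.11% ± 1.30 at E17.5 in wild type embryos, and Elavl3 went from 35.7% ± 0.606 to 46.3% ± 10.1. These E17.5 shares were 7.83% ± 1.43 and 41.5% ± 3.57 (n = 3) without the first library.

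**Figure D3:**
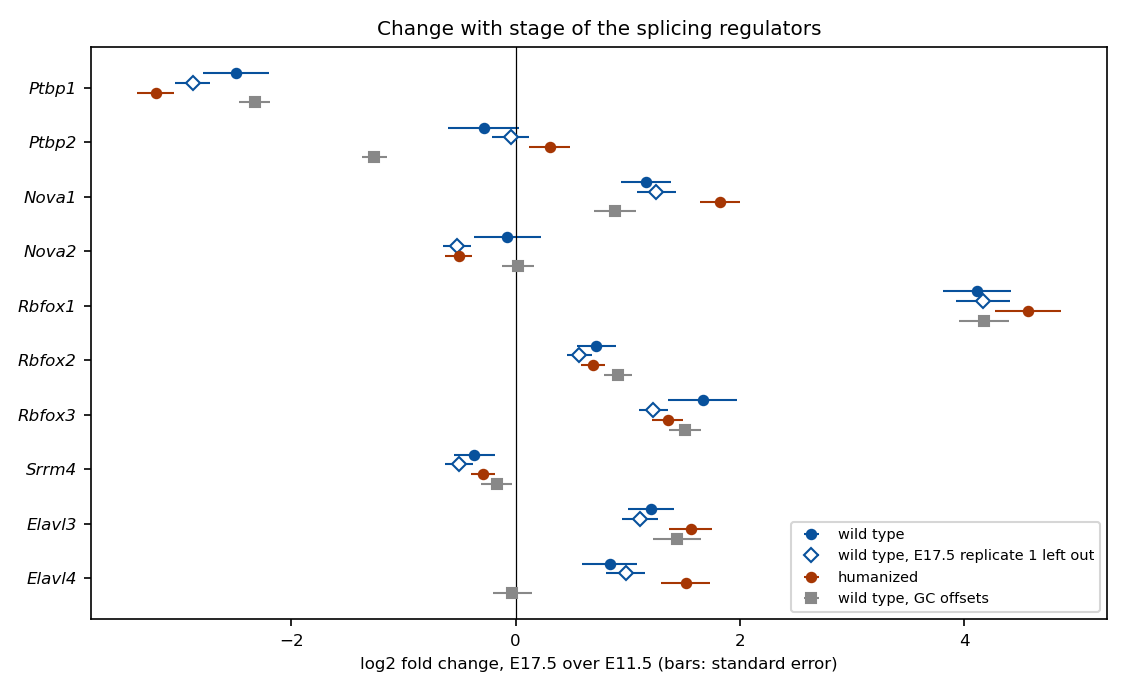
Log2 fold change between E11.5 and E17.5 (x axis, positive where higher at E17.5, bars give the standard error) of the 10 genes in wild type embryos with all 8 libraries, without the first E17.5 library and with GC offsets, and in humanized embryos. Ptbp1 at -2.49 and Rbfox1 at 4.11 keep their side of 0 throughout, whereas in wild type embryos Ptbp2 lies at -1.26 and Elavl4 at -0.03 with the offsets.

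Under GC offsets 7 of the 10 genes passed in each genotype, against 65.7% of all genes in wild type and 77.1% in humanized embryos. Ptbp1 and Ptbp2 fell, and Nova1, Rbfox1, Rbfox2, Rbfox3 and Elavl3 rose.

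Genes that work with these regulators were taken from lists. Of 10 cofactors of PTBP and RBFOX proteins, 1 rose and 6 fell in wild type embryos (median log2 change -0.79), from Matr3 at 1.79 ± 0.38 to Raver2, a PTBP1 corepressor, at -1.62 ± 0.16. Of 10 SR proteins, general activators of splicing, 0 rose and 7 fell (median -1.002), with Srsf9 at -1.51 ± 0.20. Of 17 other tissue-enriched splicing factors tested, 8 rose and 4 fell (median 0.20), from Celf4 at 2.56 ± 0.25 to the epithelial regulator Esrp1 at -4.80 ± 0.54. Without the first E17.5 library the falling counts were 6 of 10, 8 of 10 and 8 of 18.

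Of 8 genes of the REST and miR-124 circuit, in which REST keeps neuronal genes silent in progenitors and miR-124 targets Ptbp1 mRNA, 0 rose and 4 fell. Rest fell by 1.502 (SE 0.28, edgeR adjusted p = 0.0010) and its corepressor gene Rcor2 fell by 3.05 (SE 0.30). The miR-124 host genes Mir124a-1hg (-0.39 ± 0.32, adjusted p = 0.33) and Mir124-2hg (-0.29 ± 0.36, adjusted p = 0.52) were not called in wild type embryos. In humanized embryos Mir124-2hg rose by 0.53 ± 0.20 (adjusted p = 0.031) and Mir124a-1hg was not called (0.02 ± 0.17, adjusted p = 0.91). Without the first E17.5 library 5 of the 8 fell, with Rest at -1.29 ± 0.16 and Rcor2 at -3.44 ± 0.15. Dlg4 and Gabbr1, whose transcripts are destabilised when PTBP1 represses an exon, rose by 1.35 ± 0.33 (adjusted p = 0.0055) and 2.02 ± 0.29 (adjusted p = 1.9e-04). Without the first E17.5 library they rose by 0.84 ± 0.13 and 1.61 ± 0.12. Flna, in which PTBP1 acts in the opposite sense, fell by 1.78 (SE 0.18, adjusted p = 1.3e-05), or by 1.86 (SE 0.14) without that library. Counts per gene do not show which exons were used, and splicing itself was not measured here. The part of PTBP1, or of shifts in cell types, in the changes of Dlg4, Gabbr1 and Flna was not tested.

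Markers of several cell types changed between the stages. Of 10 neuron markers, 8 rose in wild type embryos and their summed level went from 2224 to 3206 CPM at E11.5 to between 9029 and 10058 at E17.5. Of 10 neural progenitor markers, 9 fell and 1 rose, from 4731 to 5218 CPM down to between 1014 and 1272. Astrocyte markers rose in 6 of 6, oligodendrocyte lineage markers in 5 of 6, choroid plexus markers in 3 of 4, and mesenchyme and meninges markers fell in 5 of 6. Microglia, endothelial and red blood cell markers rose in 1 of 6, 1 of 5 and 1 of 6, and 2 of 6 red blood cell markers fell. Diencephalon markers summed to 1403 to 1946 CPM at E11.5, then 1390 to 1649 at E17.5, with 1 of 6 higher and 2 lower. Without the first E17.5 library the counts of rising markers were the same for each of these lists, and 2 of 6 microglia, 2 of 5 endothelial and 3 of 6 red blood cell markers fell, as did 1 oligodendrocyte lineage and 1 choroid plexus marker. The part of these shifts in the changes of the 10 genes was not tested.

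Genotype was compared within each stage, which is the comparison the study was designed for. By edgeR, 0 of the 10 genes differed between humanized and wild type embryos at E11.5 (0 of 17816 genes, 0%, 1058 genes at an unadjusted p under 0.05, and 2 genes by DESeq2, neither of them a member). At E17.5 also 0 differed (0 of 18763 genes, 207 at an unadjusted p under 0.05, and 1 by DESeq2, not a member). Log2 differences ran from -0.42 (Nova1) to 0.29 (Ptbp1) at E11.5, with standard errors of 0.08 to 0.35, and from -0.41 (Ptbp1) to 0.34 (Elavl4) at E17.5, with standard errors of 0.17 to 0.30. The change with stage did not differ detectably by genotype either (0 of 20234 genes by edgeR, 1610 at an unadjusted p under 0.05, 0 by DESeq2). Among the 10 genes, Ptbp1 and Nova1 had an unadjusted p under 0.05 for this interaction, at -0.72 ± 0.34 and 0.66 ± 0.28 (adjusted p = 0.46 for both). With GC offsets these values were -0.29 and 0.09, and without the first wild type E17.5 library they were -0.34 and 0.57. Without that library the E17.5 difference of Ptbp1 between genotypes was -0.03 ± 0.14 in place of -0.41 ± 0.29. The unadjusted counts moved with single libraries. Over the fits that left out 1 library, they ran from 401 to 3963 genes at E11.5 (0 to 5 of the 10 members, with 5 without the fourth humanized library and 3 without the second wild type library), from 82 to 750 at E17.5 (0 members) and from 688 to 3749 for the interaction (0 to 5 members), with 0 genes called in each.

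Promoter peaks were read from the lists of each replicate, as peaks within 1 kb of any annotated start site of a gene, over 20937 protein-coding genes outside chromosome 13. H3K4me3, found at active and poised promoters, marked all 10 genes in every wild type list at both stages, against 64.7% of all genes in the E11.5 lists and 64.9% in the E17.5 lists. With at least 50% of the peak required inside the window, 3 of the 10 counted at each stage, against 53.8% and 52.7% of genes. H3K27ac, found at active promoters and enhancers, marked 9 of them in both E11.5 lists, against 49.0%, and 10 in all E17.5 lists, against 58.6%, with Rbfox1 the exception at E11.5. H3K27me3, the Polycomb mark of repressed genes, lay at Rbfox1, Rbfox3, Srrm4 and Elavl3 in every list of both stages, 4 of 10 against 20.9% and 21.0% of genes. Nova2 and Elavl4 had a wild type H3K27me3 peak in 1 of 2 E11.5 lists and in no E17.5 list, and Nova1 in 2 of 3 at E17.5. Ptbp1, Ptbp2 and Rbfox2 had none in any of the 10 lists of the mark. The genes differ in how many starts could be marked, since Rbfox2 and Rbfox3 have 25 annotated start sites each, Rbfox1 11, Elavl4 9 and the others 1 or 2.

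**Figure D4:**
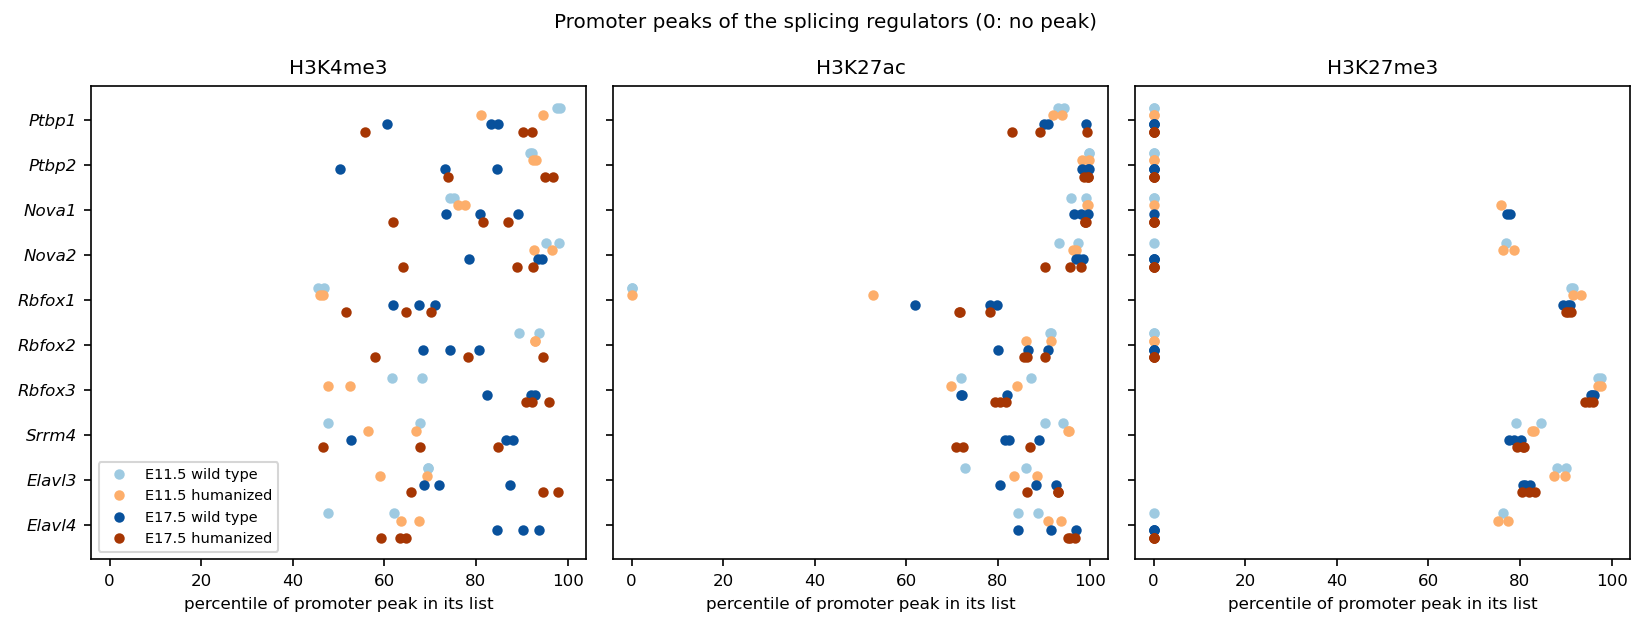
Percentile of the strongest promoter peak of each of the 10 genes (x axis, 0 where the list had no peak, rank among 20937 protein-coding genes of the same list) for H3K4me3, H3K27ac and H3K27me3, with 1 dot per list. Rbfox1 has no H3K27ac peak in 3 of the 4 E11.5 lists and lies between 61.9 and 79.8 in all 6 E17.5 lists.

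To compare stages, the strongest promoter peak of each gene was ranked within its list, and the mean percentile was compared between 4 E11.5 and 6 E17.5 lists of both genotypes with an exact permutation test, two-sided, of the stage labels within genotype. The test has 100 arrangements and cannot give a p below 0.01, so that an adjusted p under 0.05 needs at least 20% of the genes tested to reach that value. For H3K27ac, Rbfox1 was called as higher at E17.5, at 0, 0, 0 and 52.8 in the E11.5 lists and 61.9 to 79.8 in the E17.5 lists (difference of 60.4 points, exact p = 0.01, adjusted p = 0.036). It was 1 of the 10 genes, against 27.9% of 13293 genes tested (16.2% higher and 11.8% lower). Leaving out any 1 list raised the smallest p the test can give and left 0 members called. Srrm4 went the other way, from a mean of 93.8 to 80.5, without being called (exact p = 0.02, adjusted p = 0.060). Ptbp1 kept a strong H3K27ac promoter, with a mean of 93.4 in the E11.5 and 92.0 in the E17.5 lists (exact p = 0.70), and Ptbp2, with means of 99.4 at both stages, was among the most highly ranked of all genes. In the wild type lists the fold enrichment of the Ptbp1 promoter was 22.7 and 24.05 in the E11.5 lists and 37.0, 36.6 and 64.9 at E17.5. Over all genes with a promoter peak the median also rose, from 10.2 to 10.3 at E11.5 to between 19.3 and 21.9 at E17.5.

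For H3K4me3, 0 genes of 14039 were called, with 3116 at an unadjusted exact p under 0.05. Rbfox3 went from 47.7 to 68.2 at E11.5 to between 82.4 and 96.0 at E17.5 without overlap (difference of 33.6 points, exact p = 0.01, adjusted p = 0.079), and Rbfox1 from 45.5 to 46.7 to between 51.6 and 71.0 (difference of 18.3 points, exact p = 0.02, adjusted p = 0.12). Nova1, Srrm4, Elavl3 and Elavl4 also had higher means at E17.5, by 3.18, 11.4, 14.2 and 15.7 points. Rbfox2, Ptbp1, Ptbp2 and Nova2 had lower means, with differences of -16.5, -15.1, -13.4 and -10.3 points. Rbfox2 thus went down in H3K4me3 rank (exact p = 0.05, adjusted p = 0.20) while its RNA rose. When the stage labels were permuted over all 10 lists, Rbfox3 was called, with 10.3% of all genes called.

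For H3K27me3, 7 of the 10 genes had a peak in at least 1 list, and Rbfox1, Rbfox3, Srrm4 and Elavl3 were called, all lower at E17.5. The percentiles come from lists of unequal length, 13850 to 21295 peaks at E11.5 and 19193 to 43700 at E17.5, and the part of list length was not tested. Of 6916 genes tested 47.0% were called, 22.3% lower and 24.7% higher. Rbfox3 had the strongest H3K27me3 of the 10, with a fold enrichment of 13.8 and 13.4 in the wild type E11.5 lists and 10.6, 8.23 and 8.25 at E17.5. These values belong to a start within the gene, at chr11:118461213. At the cluster of starts with the canonical Rbfox3 start, the wild type values were 8.27 and 7.31 at E11.5, then 3.62, 3.06 and 2.87 at E17.5. Elavl3 went from 5.12 and 5.30 to 3.39, 2.87 and 2.90, and its percentile fell by 7.24 points (exact p = 0.01, adjusted p = 0.023). For Rbfox1, Rbfox3 and Srrm4 the percentile fell by 1.52, 1.96 and 2.80 points (adjusted p = 0.043, 0.023 and 0.043), with the mark still present at each. The percentiles of Rbfox1 (91.1 to 93.3 in the E11.5 lists, 89.3 to 91.2 in the E17.5 lists) and Srrm4 (79.1 to 84.6, then 77.5 to 80.8) overlapped between the stages. With only the canonical start read, Elavl3 alone was called, and without any 1 E11.5 list 0 members were. All 4 genes carried H3K4me3, H3K27ac and H3K27me3 at E17.5 within 1 kb of a start, in pooled tissue where marks of different cells cannot be told apart.

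Rbfox1 was read start by start, since its 11 start sites fall into 8 clusters across 2105679 bp. The canonical start belongs to a cluster of 4 starts (chr16:6166236-6167002). At this cluster the wild type H3K27ac lists had no peak at E11.5, and fold enrichments of 14.4, 26.3 and 28.6 at E17.5. H3K27me3 there went from 5.53 and 5.19 to 3.00, 2.68 and 2.38, and H3K4me3 from 15.3 and 17.2 to 37.0, 44.8 and 36.8. Its wild type H3K4me3 peaks at E11.5 began at 6166212 and 6166315, mostly downstream of the window printed above, which ends at 6166285. The cluster upstream of the canonical one, at chr16:5703219, had the strongest H3K4me3 of the gene. It stood at 24.1 and 22.4 at E11.5, then 52.4, 58.3 and 46.7 at E17.5. At this upstream cluster the fold enrichment of H3K27me3 went from 6.83 and 6.18 to 4.40, 3.27 and 2.99. The length H3K27me3 covered within 5 kb went from 4147 and 4126 bp to 5727, 5741 and 6249 bp. In these lists H3K4me3 rose and the fold enrichment of H3K27me3 fell at both clusters. A cluster within the gene at chr16:6857651 kept H3K27me3 at 5.68 and 4.56 at E11.5, then 5.62, 5.04 and 5.50 at E17.5, with weak H3K27ac of 3.76, 4.04 and 4.66 at E17.5.

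**Figure D5:**
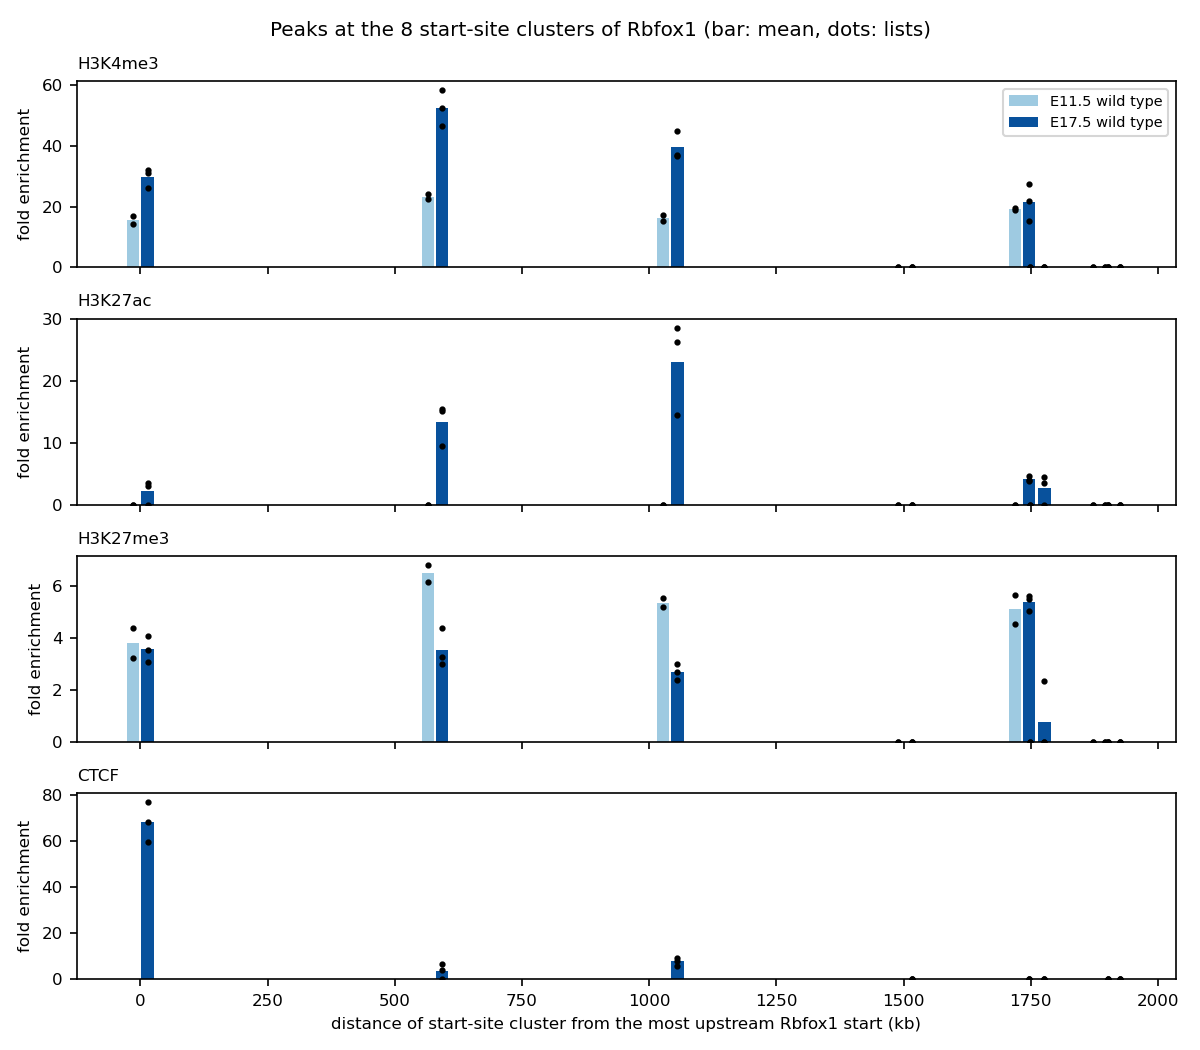
Fold enrichment of the strongest peak (y axis, from 0) within 1 kb of each start-site cluster of Rbfox1 in wild type lists, against the distance of the cluster from the most upstream start (x axis, kb), for H3K4me3, H3K27ac, H3K27me3 and CTCF. Bars give the mean and dots the single lists (2 for E11.5, 3 for E17.5). CTCF is strongest at the most upstream start, H3K27ac at the cluster with the canonical start.

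Away from the starts, H3K27ac peaks inside Rbfox1 numbered 11 and 4 in the wild type E11.5 lists and 81, 102 and 119 at E17.5, covering 65233 to 94786 bp of the gene. The H3K27ac lists as a whole grew less, from 36150 and 32418 peaks to 62720, 74802 and 77419. H3K27me3 peaks away from its starts went from 7 and 3 to 58, 38 and 19, while the H3K27me3 lists went from 19166 and 13850 peaks to 43700, 27452 and 33223. Inside Elavl4 H3K27ac peaks away from the starts went from 1 and 0 to 6, 9 and 9. Elavl3 ran the other way, with 4 and 3 at E11.5 and 0 in every E17.5 list, and the length covered by H3K27ac in the gene went from 6695 and 6083 bp to 2776, 2647 and 2805 bp. H3K27me3 covered 7590 and 4898 bp of Nova2 at E11.5, then 803, 811 and 0 bp at E17.5.

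CTCF, an architectural DNA-binding protein, had a peak within 1 kb of a start in all 3 wild type E17.5 lists for 8 of the 10 genes, against 37.3% of all genes, with Nova1 and Ptbp2 the exceptions. The strongest lay at the most upstream Rbfox1 start, with fold enrichments of 77.1, 59.7 and 68.6, above 99.7% of genes in each list. Elavl4 followed at its most upstream start, with 66.3, 36.5 and 50.2, and then Srrm4 with 47.1, 22.8 and 33.8. The 101 bases around the summits of the first 2 in the first wild type list, on the plus strand of GRCm39, are shown because both summits lie within a few bases of a start, with matches to AGNNGGC, part of the CTCF motif, on either strand in capitals. The windows are chr16:5124591-5124691 and chr4:110209089-110209189.
Rbfox1 upstream start: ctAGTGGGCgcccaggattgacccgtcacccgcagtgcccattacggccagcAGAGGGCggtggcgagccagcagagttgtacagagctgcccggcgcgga
Elavl4 upstream start: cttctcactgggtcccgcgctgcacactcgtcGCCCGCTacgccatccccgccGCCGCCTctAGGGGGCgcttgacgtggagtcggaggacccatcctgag
The summits lay 24 bases before the Rbfox1 start and 3 bases after the Elavl4 start. The Rbfox1 window held 2 matches and the Elavl4 window 3, whereas the Srrm4 window of the same list held 0. Of the 78657 summits of that list on the reference chromosomes, 52.6% held at least 1. At Ptbp1 weak CTCF peaks (fold enrichment 4.35, 3.64 and 3.01) were listed in all 3 wild type and in 0 of 3 humanized lists. The wild type summits lay 1007, 961 and -137 bases from the start (negative before it), so that they were not all the same site. With 3 lists against 3, presence allows no exact p below 0.10. The wild type lists were longer, with 61582 to 78661 CTCF peaks against 54857 to 59845, and the part of list length was not tested.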

How the data were processed

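RNA-seq and ChIP-seq of mouse embryonic diencephalon were analysed in 52 of 76 samples, 16 RNA samples and 36 peak lists. The 24 input samples were not analysed here. Per the labels and the study's methods, the authors aligned RNA reads to mm39 with STAR 2.7.9a and deposited raw counts per gene from polyA libraries (GENCODE release 31). The unstranded counts were used. Reads on no gene (48.1% to 58.4%), which include the unmapped reads (36.3% to 44.9%), stayed out of library sizes. They aligned ChIP reads with Bowtie2 2.4.2 and called peaks per replicate with MACS2 2.2.7.1. The deposited lists give fold enrichment, the -log10 of p and q values, and a score that was not used. The labels name different catalogue numbers for the H3K27ac antibody in 2 fields, and the study's methods state that the lot used also binds acetylated histone H2B. The peak lists carry no read depth, and peak values are printed with no interval.

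The 10 genes and the other gene lists (18 lists in all) were chosen with earlier results of these data known. The result of 1 marker list is not reported here. Release 39 of GENCODE gave names, starts and lengths, and 56236 of 56923 identifiers matched. Counts were filtered with filterByExpr, scaled by TMM and tested with edgeR 4.0.16 (R 4.3.3), with DESeq2 1.42.0 as an alternative; adjusted p-values are over all genes tested, and p-values measure the spread between litters. TPM was computed from the deposited counts. Beyond the members, their paralogs, Rest, the miR-124 host genes and the PTBP1 targets, named genes are the called genes with the largest rise or fall of their list in wild type embryos. The tests were checked on simulated data. At E17.5 the deviations of same-numbered libraries of both genotypes had correlations of 0.57, 0.64, 0.11 and 0.27. Only the first and second humanized libraries matched their own number best, and the labels give no pairing beyond the replicate number. The edgeR fit of genotype at E17.5 with the replicate number as a block called 0 genes. It had 717 genes at an unadjusted p under 0.05, against 207 without the block. Peak lists were read with pandas and numpy, and chromosome 13 was left out because the humanized genome shifts it. Alternatives are given in the closing section.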

Additional observations from a re-analysis of the deposited data

Results flagged for a closer look

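In 40 groups of 4 libraries, 1 for each of the 10 genes in each stage and genotype, the highest and lowest library was compared with its neighbours. In 6 of them 1 library lay farther off than the 95% limit for 4 values, where chance gives about 1 in 20. Of these, 4 were the first wild type library at E17.5: Ptbp1 at 69.8 CPM against 29.1 to 34.3 in the other 3, Nova2 at 603 CPM against 234 to 281, Rbfox2 at 918 CPM against 636 to 670, and Rbfox3 at 147 CPM against 60.0 to 65.2. The other 2 were the first humanized library at E17.5, with Ptbp2 at 303 CPM against 403 to 423 and Rbfox3 at 82.1 CPM against 62.4 to 64.7.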

How the results depend on the processing

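The alternatives were DESeq2, DESeq2 size factors, library totals, no filter on low counts, the reverse-strand counts, a replicate block, 1 fit of all 16 libraries, GC offsets (chosen after seeing the data) and leaving out each library. Of 320 member values recomputed for the stage changes, 294 kept direction and side of the threshold, 10 lost and 7 gained a call, and 9 reversed. The reversals were Nova2 in wild type embryos with GC offsets (0.020) and without E17.5 replicate 2, 3 or 4 (leaving out each library in turn gave -0.52 to 0.082), Elavl4 in wild type (-0.030) and humanized (-0.14) embryos with GC offsets, and Ptbp2 (-1.34), Nova2 (0.13) and Srrm4 (0.22) in humanized embryos with GC offsets. The replicate block left 7 members called in wild type embryos (50.9% of all genes) and 10 in humanized embryos (77.0%), where Ptbp2 gained a call (0.33), and changed no other call of a member. For genotype, DESeq2 called 2 genes among E11.5 and 1 among E17.5 libraries, and the fit of all 16 libraries called 1 at E11.5. The edgeR fits within each stage called 0. Library totals moved the median log2 change of all genes in wild type embryos from -0.01 to -0.13.

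For promoters by stage, permuting over all 10 lists called 2 members for H3K27ac (32.2% of all genes) and 1 for H3K4me3 (10.3%), and the canonical start alone left 1 for H3K27me3 (46.6%). Leaving out 1 list, which raises the smallest p to 0.017 or 0.025, left 0 members for H3K27ac and 0 to 3 for H3K27me3. Requiring 50% of a peak in the window left 6 members with H3K27ac at E17.5 (53.5% of all genes), 3 and 3 with H3K4me3 at E11.5 and E17.5 (53.8% and 52.7%), and 2 and 1 with H3K27me3 (7.87% and 5.0%), and a -log10 q of at least 5 left 2 with H3K27me3 at E17.5 (13.8%). With the longest transcript as length, wild type family shares at E11.5 were 44.4% (Ptbp2), 33.3% (Nova1), 66.7% (Nova2), 3.03% (Rbfox1), 89.5% (Rbfox2), 7.45% (Rbfox3), 71.0% (Srrm4), 33.2% (Elavl3) and 27.4% (Elavl4), and at E17.5 23.9% (Rbfox1), 65.9% (Rbfox2), 10.2% (Rbfox3) and 54.1% (Srrm4). The cause of these changes was not tested. Peak lists carry no depth, which limits statements on absent peaks.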
